A study of Mus musculus with 90 samples.

Results

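Voltage-gated sodium and calcium channel genes were followed over 5 subregions of the mouse brain, the p16 label of the sampled areas and chronic social stress. Members were all genes of the measured panel whose symbol names a numbered Scn a or b subunit, or begins with Cacna, Cacnb or Cacng. The rule found 40 of 19962 genes: 14 sodium channel genes (10 pore-forming alpha subunits and 4 beta subunits) and 26 calcium channel genes (10 pore-forming alpha1 subunits, 4 alpha2delta subunits, 4 beta subunits and 8 gamma subunits).

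Voltage-gated sodium channels open on depolarisation and carry the upstroke of the action potential; a pore-forming alpha subunit is joined by small beta subunits that set gating, surface level and adhesion. Voltage-gated calcium channels turn depolarisation into calcium entry: the Cav1 (L-type) pores couple it to gene transcription and dendritic calcium, the Cav2 (P/Q-, N- and R-type) pores to transmitter release, and the Cav3 (T-type) pores open near rest and shape burst firing. Cytosolic beta and extracellular alpha2delta subunits carry Cav1 and Cav2 pores to the membrane. Most brain gamma subunits are transmembrane AMPA receptor regulatory proteins (TARPs), which bind AMPA-type glutamate receptors rather than calcium channels. Pyramidal neurons of the hippocampus and cortex use many of these genes, and the choroid plexus is an epithelium that secretes cerebrospinal fluid.

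The brains were from 10 mice, 6 under chronic social stress (CSS) and 4 kept as controls (ctrl). Genotype, strain, sex and age were unstated in the labels, as was the form and length of the stress. RNA was counted with the GeoMx Digital Spatial Profiler, in which photocleavable tags of probes bound to RNA in a fixed section are released by light from a drawn area of interest (AOI). Each of 90 AOIs came from the hippocampal fields CA1 or CA3, the motor cortex (MC), the somatosensory cortex (SS) or the choroid plexus (CP), and carries the label high or low for p16, the cell cycle inhibitor made from Cdkn2a and a marker of senescent cells. The labels do not say how p16 status was assigned or how the areas were drawn within a subregion. CA1 and CA3 gave 18 AOIs each, MC and SS 19 each, all from 10 mice, and CP gave 16 AOIs from 9 mice; 46 AOIs were p16 high and 44 p16 low. An AOI holds many cells, so that fewer cells of a type and less RNA per cell cannot be told apart.

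Values are the signal deposited by the authors, scaled so that every AOI has the same median gene, 22.1. Recovered probe counts ran from 184469 to 2098984 per AOI. The signal of the negative control probe ran from 10.8 to 18.1, and a member near this range is at background. The labels of the subregions were checked on genes that define them. Ttr, the transthyretin of choroid plexus epithelium, was between 48483 and 95098 in the 9 CP means and at most 429 elsewhere; Pou3f1 was at least 267 in CA1 and at most 85.8 elsewhere; Cpne4 was at least 124 in CA3 and at most 30.3 elsewhere. The CA3 AOIs of mouse 1175 had the lowest Cpne4 of CA3, at 109 and 139, and results were repeated without them. The replicate was the mouse, and tests are limma's on log2(signal + 1), 2-sided, with Benjamini-Hochberg adjustment over all 19962 genes; an adjusted p under 0.05 is a call. Differences are on that log2 scale, which understates those of genes near background.

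A member was called measurable where its mean ratio to the negative probe of the same AOI reached 2 in at least 1 subregion, which 28 of 40 members did. The measurable sodium channel genes were the alpha genes of brain (Scn1a, Scn2a, Scn3a and Scn8a, which encode Nav1.1, Nav1.2, Nav1.3 and Nav1.6) and all 4 beta genes. Of the calcium channel pores, Cacna1c and Cacna1d (Cav1.2 and Cav1.3), the 3 Cav2 genes and the 3 Cav3 genes were measurable. So were 3 of 4 alpha2delta genes, 4 of 4 beta genes and 5 of 8 gamma genes. The 12 others stayed near the negative probe in every subregion. They include genes known from other tissues: Scn4a and Cacna1s of skeletal muscle, Scn9a, Scn10a and Scn11a of sensory neurons, Cacna1f and Cacna2d4 of retina, and Cacng1 and Cacng6, together with Scn7a and Cacng4.

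**Figure D1:**
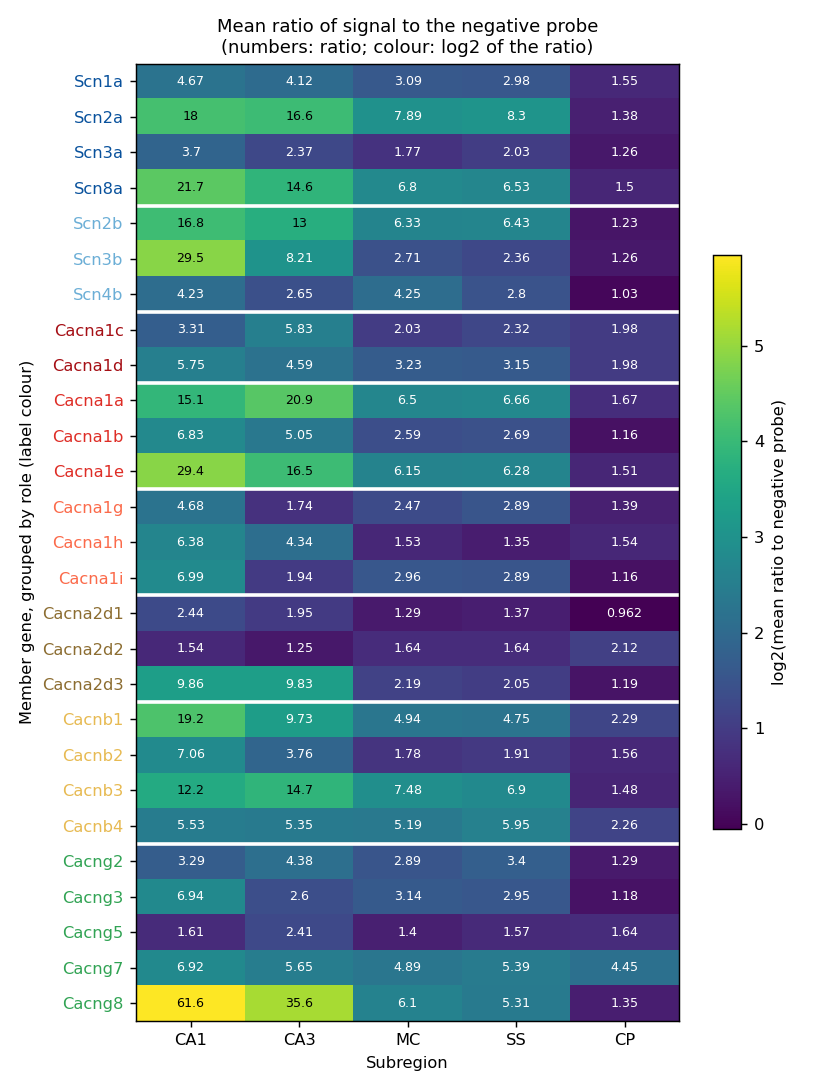
Mean ratio of signal to the negative probe (number in each cell, colour on a log2 scale) for 27 of the 28 measurable members in the 5 subregions, over 10 mice (CP, 9 mice). Each row is to be read across and not against other rows, since probes differ; CP holds the lowest ratio in most rows, and Scn3b falls from 29.5 in CA1 to 8.21 in CA3.

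Among the sodium channel alpha genes, Scn2a and Scn8a had higher deposited values in CA1 and CA3 than in MC and SS, and their lowest in CP; for Scn2a the step between hippocampus and cortex was lost with quantile normalization. Scn2a, the Nav1.2 of axon initial segments and unmyelinated axons, was at 158 in the lowest, 242 in the median and 283 in the highest mouse in CA1, and at 129, 246 and 289 in CA3. In MC it was at 79.3, 120 and 173, in SS at 82.3, 131 and 165, and in CP at 12.2, 17.2 and 22.1. CA1 and CA3 overlapped widely, as did MC and SS, and CP stood below all of them. Scn8a, the Nav1.6 of mature initial segments and nodes, was at 174, 281 and 399 in CA1, 126, 209 and 272 in CA3, 70.2, 114 and 154 in MC, 70.1, 101 and 143 in SS and 11, 22.1 and 24.9 in CP. Scn1a encodes Nav1.1, known from fast-spiking interneurons. Its mean ± SD was 60.2 ± 8.19 in CA1, 57.1 ± 11.8 in CA3, 50.2 ± 12.1 in MC, 46.5 ± 7.82 in SS (n = 10 mice each) and 20.7 ± 3.78 in CP (n = 9). With quantile normalization Scn1a was instead lower in CA1 than in cortex, at -0.27 (limma, adjusted p = 0.0045). Scn3a, whose Nav1.3 is mostly a developmental form, was at 47.6 ± 11.2 in CA1 and 29 ± 3.95 in MC (n = 10 each).

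Among the sodium channel beta genes, Scn2b and Scn3b had the same order of means over the subregions, CA1, CA3, MC, SS and CP, with unequal steps, and Scn4b had another. Scn3b was at 239, 376 and 493 in CA1 (lowest, median and highest mouse), 88.1, 112 and 164 in CA3, 31.4, 37.5 and 89.5 in MC, 20.8, 36.2 and 51.7 in SS and 12.9, 15.9 and 22 in CP. Every mouse had more Scn3b in CA1 than any mouse had elsewhere. Scn2b, for the disulfide-linked beta2, ran from 215 ± 46.1 in CA1 through 180 ± 37.4 in CA3 to 102 ± 31.3 in MC and 99.3 ± 22.1 in SS (n = 10 each). Scn4b, for the beta4 linked to resurgent current, had its highest mean in MC, at 69 ± 24.5, against 54.1 ± 11.5 in CA1, 43.9 ± 12.6 in SS and 37 ± 7.29 in CA3 (n = 10 each), with overlap among all 4.

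Scn2b and Scn4b lie 8.553 kb apart on the same strand of chromosome 9 (9:45117876-45130070 and 9:45138624-45154155, GRCm38.p6, the mm10 build). The 250 bases before the start of each, from RefSeq, are printed because these neighbours had different orders of means over the subregions. Their upstream sequences also differ, and whether the sequences are linked to the levels was not tested. Capitals mark CG dinucleotides, of which Scn2b has 1 and Scn4b 23; the G and C content is 38.4% and 66%. The windows are chr9:45117626-45117875 and chr9:45138374-45138623, both on the plus strand.
Scn2b: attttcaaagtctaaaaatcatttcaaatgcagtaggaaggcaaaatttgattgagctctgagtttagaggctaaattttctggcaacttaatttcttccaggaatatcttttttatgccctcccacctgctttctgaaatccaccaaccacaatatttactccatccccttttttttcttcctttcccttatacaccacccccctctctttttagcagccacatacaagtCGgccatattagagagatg
Scn4b: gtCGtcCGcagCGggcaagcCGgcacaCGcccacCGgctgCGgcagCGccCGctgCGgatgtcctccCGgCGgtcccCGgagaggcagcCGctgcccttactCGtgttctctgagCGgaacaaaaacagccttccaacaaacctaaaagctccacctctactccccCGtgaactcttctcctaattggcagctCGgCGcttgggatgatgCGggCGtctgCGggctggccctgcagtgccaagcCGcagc

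Calcium channel pores also took several orders. Cacna1e, the R-type Cav2.3, was at 253, 366 and 499 in CA1, 163, 241 and 324 in CA3, 61.2, 99.1 and 138 in MC, 63.5, 92.6 and 137 in SS and 12.9, 20.6 and 23.8 in CP. Cacna1a, the P/Q-type Cav2.1, was instead highest in CA3, at 169, 301 and 394 against 138, 195 and 252 in CA1. MC and SS differed by less than the spread between mice for both genes. Cacna1c, the L-type Cav1.2, was at 57.4, 88.2 and 111 in CA3, 30.3, 40.9 and 57.9 in CA1, 28.7, 33.5 and 37.1 in MC and 30.6, 35.4 and 43.2 in SS, so that CA3 was highest and met CA1 only at its lowest mouse. Cacna1i, the T-type Cav3.3, had the order CA1 (60, 89.7 and 126), MC (38.1, 43.7 and 71.2) or SS (31.2, 44.5 and 57.8), then CA3 (18.4, 26.2 and 39.2). The T-type Cacna1g (Cav3.1) followed the same order, with means of 60.1 in CA1, 40.1 in MC, 44.8 in SS and 24.8 in CA3, whereas Cacna1h (Cav3.2) was at 82.2 in CA1, 60.1 in CA3, 24.8 in MC and 20.8 in SS.

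Of the auxiliary genes, Cacng8 (TARP gamma-8, the main hippocampal TARP) was at 501, 812 and 986 in CA1, 289, 521 and 677 in CA3, 64.9, 96.1 and 135 in MC, 59.3, 81.2 and 110 in SS, and 5.52, 18.4 and 29.4 in CP. Each hippocampal mouse value lay above every cortical one, and each cortical value above every CP one. Its neighbours on chromosome 7 behaved otherwise. Cacng7 (7:3332027-3368221), a TARP 25.82 kb upstream of Cacng8 (7:3394042-3416266), stayed between 78.9 and 89.1 on average in the 4 neuronal subregions and kept 58.3 ± 11.5 in CP (n = 9). Cacng6 (7:3423588-3435667), 7.321 kb downstream and a subunit known from muscle, was near the negative probe everywhere. The alpha2delta-3 gene Cacna2d3 was at 127 ± 20.6 in CA1 and 135 ± 32.8 in CA3 against 35.6 ± 10.5 in MC and 32.4 ± 5.63 in SS (n = 10 each).

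**Figure D2:**
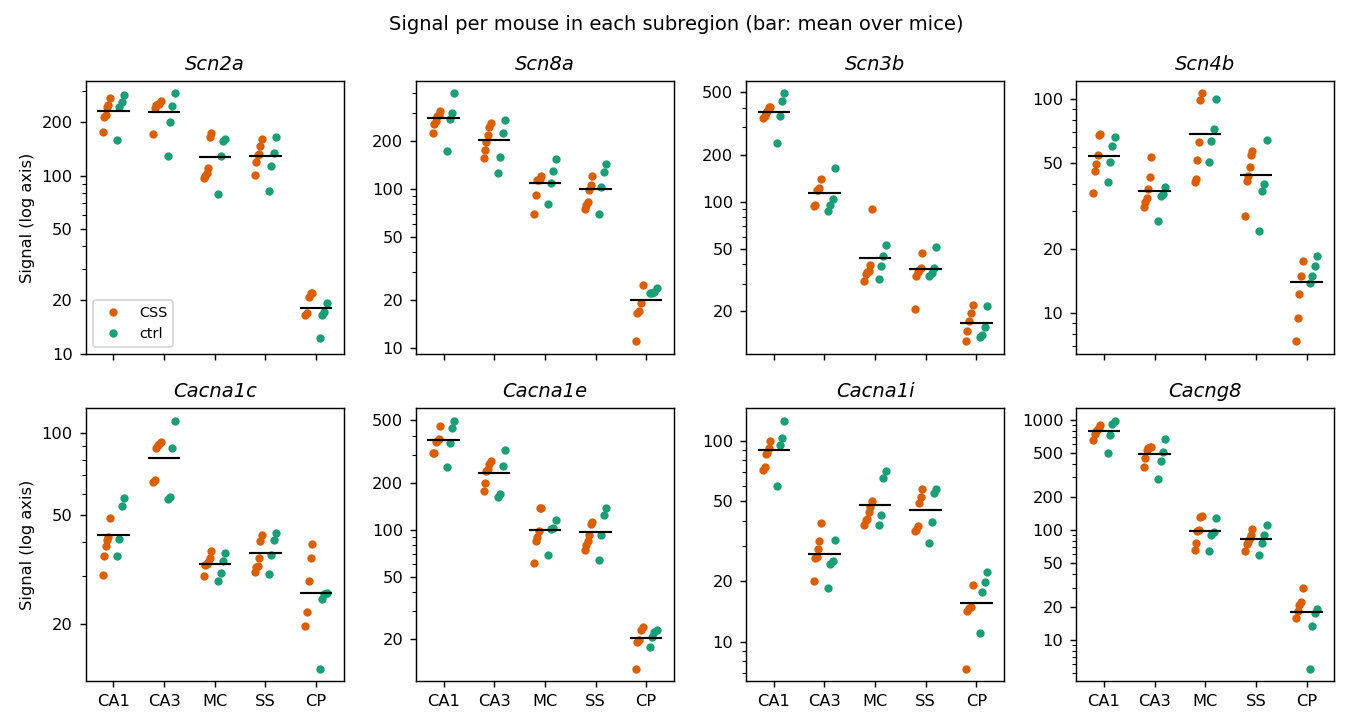
Signal (log axis) of 8 members in each mouse and subregion, with CSS mice in orange, control mice in green and the mean over mice as a bar. Scn3b and Cacng8 are highest in CA1 in 10 of 10 mice, Cacna1c in CA3 in 9 of 10, and all 8 are lowest in CP on average; the 2 stress groups overlap.

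Choroid plexus against hippocampus and cortex. In the 9 mice with CP, 26 members were lower in CP than in the mean of the 4 other subregions and 1 was higher (background: 19.6% of all genes lower, 20.6% higher). None of the 12 members near the negative probe was called. The median difference was -1.11 over the 40 members, against -0.03 over all genes. Most measurable members reach the limit of 2 only outside CP, so counts over them alone carry no weight here. For 24 members the mice did not overlap between the sides. The share of all genes without overlap was not counted, so the 24 have no background to be read against. Most members in CP were at or little above the negative probe, with mean ratios of 0.962 to 2.54 in the measurable ones other than Cacng7 at 4.45, so the differences are limited by background there.

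Of the 10 sodium alpha genes 4 were lower, of the 4 sodium beta genes 4, of the 10 calcium pores 8 and of the 4 calcium beta genes 4. Scn2a ran from 12.2 to 22.1 in CP and from 112 to 223 in the same mice outside it, a difference of -3.16 (SE 0.11, limma, adjusted p = 4.38e-15). Cacng8 differed by -3.73 (SE 0.17), Cacna1e by -3.05 (SE 0.13), Scn2b by -3.04 (SE 0.13) and Scn8a by -2.98 (SE 0.12), each lower in 9 of 9 mice with no overlap. Cacnb3, a beta subunit common in neurons, differed by -2.83 (SE 0.11). The smaller called differences were those of Cacna1c at -0.82 (SE 0.12), Cacna2d1 at -0.86 (SE 0.13), Cacna1h at -0.93 (SE 0.11) and Cacng7 at -0.50 (SE 0.08), the last 2 with overlap between the sides. The other members that were lower and are reported here lay between -2.80 (Cacna1a) and -0.99 (Scn3a).

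Cacna2d2 (alpha2delta-2) was the 1 member called higher in CP: its mean was 28.2 ± 5.68 there (n = 9), against 21.9 in the same mice outside, a difference of 0.40 (SE 0.12, limma, adjusted p = 0.0094), positive in 8 of 9 mice with overlapping ranges. Its mean ratio to the negative probe was 2.12 in CP and 1.25 to 1.64 elsewhere, so it is measured close to background on both sides. Cacng5, a TARP, was the measurable member not called, at -0.22 (SE 0.12, limma, adjusted p = 0.171).

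Genes that work with the channels were mostly lower too. Of 13 sodium channel partners (ankyrins, intracellular fibroblast growth factor homologues, nodal adhesion proteins), 12 were lower in CP and 1 higher. The higher one was Cntn1, an adhesion molecule, at 328 against 190. Of 20 calcium channel partners (RGK proteins, calmodulins, active zone proteins) 15 were lower and 1 higher, Rem1, an RGK protein, at 27.2 against 16.8. Of 13 AMPA receptor and TARP partner genes 12 were lower, and of 4 measured genes of the sodium leak channel complex 4 were lower. General neuronal markers moved alongside: 15 of 15 were lower, and their summed signal was 362 to 483 in CP against 4925 to 9417 in CA1. The 12 choroid plexus epithelium markers summed to 58645 to 113419 in CP and to 219 to 696 elsewhere; the part of cell type in the members' differences was not tested.

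CA3 against CA1. Within the 10 mice, 5 members were higher in CA3 and 15 lower (background: 5.04% of all genes higher, 12.7% lower). The median difference was -0.18 over the 40 members, against 0.00 over all genes. For 5 members, Scn3b, Cacna1i, Cacng3, Cacnb1 and Cacna1c, the mice of the fields did not overlap on the log2 scale. The share of all genes without overlap was not counted, so this describes the members only. As mean signals, Cacna1c touched, at 57.4 in the lowest CA3 mouse and 57.9 in the highest CA1 mouse. By role, the Cav2, calcium beta and gamma groups each held members called in either direction. The other groups with calls moved in a single direction. Cav1 had 1 member higher in CA3, and Cav3, sodium alpha and sodium beta had 3 lower each.

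Among sodium channel genes 6 were lower in CA3 and none higher. Scn3b differed by -1.74 (SE 0.08, limma, adjusted p = 1.52e-17), lower in CA3 in 10 of 10 mice. Scn8a, at -0.47 (SE 0.08), Scn3a, at -0.53 (SE 0.11), Scn4b, at -0.53 (SE 0.11), and Scn2b, at -0.26 (SE 0.08), were also called, Scn4b with 9 of 10 mice and the other 3 with 10 of 10. The sixth, Scn4a at -0.60 (SE 0.19), is near the negative probe in both fields and lost its call with 75th percentile scaling (-0.44) and with edgeR (-0.30). Scn1a at -0.11 (SE 0.10) and Scn2a at -0.03 (SE 0.07) were not called.

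Of the calcium channel pores, Cacna1c was higher in CA3 by 0.91 (SE 0.10, limma, adjusted p = 3.58e-08) and Cacna1a by 0.56 (SE 0.09, limma, adjusted p = 9.04e-06), both in 10 of 10 mice on the log2 scale; for Cacna1c the difference in mouse 1182 was 0.00080. The 3 T-type genes were lower in CA3: Cacna1i by -1.69 (SE 0.13), Cacna1g by -1.22 (SE 0.14) and Cacna1h by -0.51 (SE 0.10), each in 10 of 10 mice. Cacna1e differed by -0.71 (SE 0.08) in 10 of 10 mice and Cacna1b, the N-type Cav2.2, by -0.33 (SE 0.09) in 9 of 10, so that within Cav2 the P/Q-type gene and the other 2 were called in opposite directions; the Cacna1b call, like that of Scn2b, was lost with quantile normalization (-0.12 and -0.09), with 75th percentile scaling (-0.17 and -0.10) and without the replicate block. CA3 values of Cacna1i and Cacna1g lay at 1.94 and 1.74 times the negative probe, which limits how far these differences can reach.

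The cytosolic beta genes were called in both directions too. Cacnb1 differed by -0.88 (SE 0.08) and Cacnb2 by -0.81 (SE 0.10), Cacnb3 by 0.38 (SE 0.08), each with 10 of 10 mice, and Cacnb4 by 0.07 (SE 0.09, not called). None of the alpha2delta genes was called; Cacna2d3 differed by 0.02 (SE 0.09). Of the TARPs, Cacng3 (gamma-3) differed by -1.26 (SE 0.10) and Cacng8 by -0.69 (SE 0.07), both lower in 10 of 10 mice, whereas Cacng2 (stargazin, gamma-2) differed by 0.50 (SE 0.11) and Cacng5 by 0.59 (SE 0.16), both higher in 8 of 10.

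**Figure D3:**
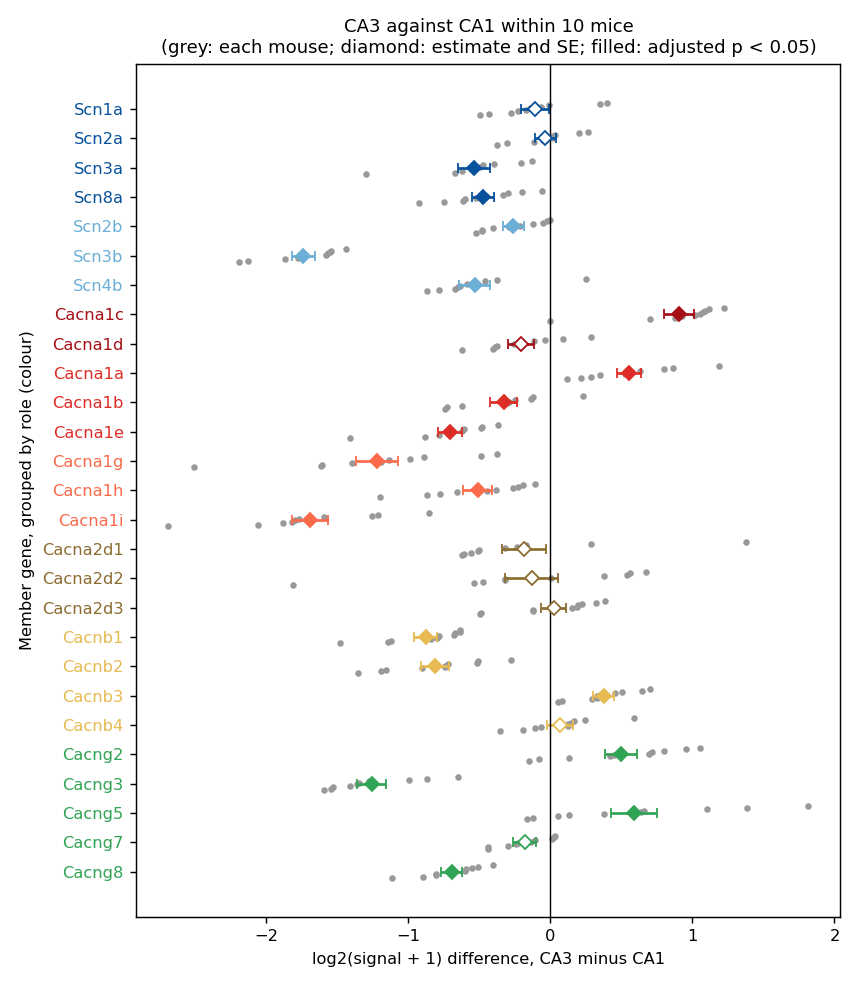
Difference in log2(signal + 1), CA3 minus CA1, for 27 of the 28 measurable members, with each of 10 mice as a grey dot and the estimate with its standard error as a diamond, filled where the adjusted p is under 0.05. Scn3b at -1.74 and Cacna1i at -1.69 lie farthest to the left and Cacna1c at 0.91 farthest to the right.

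Partner genes were called in both directions. Of 20 calcium channel partners 6 were higher in CA3, among them Stac2, an L-type channel adaptor, at 126 against 45.3, and 3 lower; of 13 sodium channel partners 4 were higher and 5 lower. Of 13 AMPA receptor and TARP partners 2 were higher and 8 lower, including Gria1 at 428 against 890 and Shisa7 at 149 against 397. Markers of glia moved with the field: 6 of 10 astrocyte and 6 of 12 oligodendrocyte lineage markers were higher in CA3, and the astrocyte sum was 752 to 1423 there against 455 to 848 in CA1. General neuronal markers were higher for 8 of 15 and lower for 3. Of 12 choroid plexus epithelium markers 2 were higher in CA3, Ttr at 209 against 19.3 and Kcne2 at 19.8 against 14.8, and 1 lower, Kl at 25.4 against 52.1; the list's sum was 220 to 696 in CA3 and 229 to 273 in CA1. The part of these in the members' differences was not tested.

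Hippocampal fields against cortex. CA1 and CA3 were each set against the mean of MC and SS in the same 10 mice; both comparisons use the same cortical AOIs, so their values are given side by side and are not independent. In CA1, 22 members were higher than in cortex and 5 lower (background: 33.9% of all genes higher, 14.4% lower). In CA3, 19 were higher and 9 lower (background: 27.5% higher, 6.23% lower). Median differences were 0.40 over the members and -0.04 over all genes in CA1, and 0.16 and 0.00 in CA3. These splits depend on how AOIs are scaled: with each AOI scaled to its 75th percentile the median of all genes moves to -0.45 in CA1 and -0.27 in CA3, and the members split into 16 higher and 17 lower in CA1 and 15 and 18 in CA3. With quantile normalization they split into 14 and 8, and 11 and 9.

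The calls that every alternative kept are 13 higher and 1 lower in CA1, and 11 higher and 5 lower in CA3. The share of all genes with calls kept in this way was not counted. Scn3b, at 239 to 493 in CA1 against 27.8 to 68.4 in cortex, was 3.24 higher (SE 0.08, limma, adjusted p = 4.81e-25), and in CA3 1.50 higher (SE 0.10). Cacng8 was 3.14 higher in CA1 (SE 0.06) and 2.45 in CA3 (SE 0.09), Cacna2d3 1.91 (SE 0.07) and 1.94 (SE 0.09), Cacna1e 1.93 (SE 0.06) and 1.22 (SE 0.09), and Cacna1h 1.86 (SE 0.10) and 1.35 (SE 0.11). All these held in 10 of 10 mice. Cacna1h in cortex is near the negative probe, at 22.8.

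Scn8a was 1.41 higher in CA1 (SE 0.06) and 0.93 in CA3 (SE 0.09), Cacnb2 1.60 (SE 0.08) and 0.79 (SE 0.11) and Cacna1b 1.05 (SE 0.09) and 0.73 (SE 0.08). In CA1 alone the calls of Cacnb1 at 1.66 (SE 0.06), Scn2b at 1.11 (SE 0.07) and Scn3a at 0.62 (SE 0.09) were also kept; in CA3 Cacnb1 and Scn2b were at 0.78 and 0.85, and at 0.09 and 0.11 with quantile normalization, which lost both calls. Cacna1c at 1.18 (SE 0.10) and Cacna1a at 1.45 (SE 0.08) were higher in CA3 under each alternative. In CA1 these 2 were called higher as deposited, at 0.27 (SE 0.10) and 0.89 (SE 0.06), and were below 0 with quantile normalization, at -0.17 and -0.03; Cacna1c was also below 0 with 75th percentile scaling, at -0.16. Scn2a, 0.87 higher in CA1 (SE 0.06) and 0.83 in CA3 (SE 0.08), was at -0.08 and 0.03 with quantile normalization, and no direction against cortex is drawn for it.

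Some members were lower than in cortex. Cacna1i was 0.93 higher than cortex in CA1 (SE 0.08) and differed by -0.76 in CA3 (SE 0.11), and both calls were kept under each alternative. Cacna1g at -0.76 (SE 0.13), Scn4b at -0.49 (SE 0.10), Cacng3 at -0.41 (SE 0.10) and Cacna2d2 at -0.57 (SE 0.14) were the other members lower in CA3 under every alternative. Cacnb4, a beta subunit abundant in cerebellum and cortex, was the 1 member lower in CA1 under each, at -0.28 (SE 0.07), with 71.3 ± 11.3 in CA1 against 87.6 in cortex and overlapping mice. Scn4b did not differ detectably between CA1 and cortex (0.04, SE 0.11).

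Partner genes were counted on the deposited scaling only. Of 13 sodium channel partners 11 were higher in CA1 than in cortex and 9 in CA3, with none lower. Of 20 calcium channel partners 10 were higher and 6 lower in CA1, and 12 higher and 1 lower in CA3. Of the AMPA receptor and TARP partners 8 of 13 were higher in each field; Gria1 was 890 in CA1 and 428 in CA3 against 86.8 in cortex. Oligodendrocyte lineage markers were lower than in cortex for 11 of 12 in CA1 and 9 of 12 in CA3, and general neuronal markers higher for 11 of 15 and 12 of 15. Of 10 astrocyte markers 8 were lower and 1 higher in CA1, with a mean sum of 685 against 1059 in MC and 1002 in SS; in CA3, with a sum of 1100, 1 was lower and 1 higher. The median gene stood at 1.75 times the negative probe in the median mouse in CA1 and 1.60 in CA3, against 1.34 in MC and 1.38 in SS. Their part in the members' differences was not tested.

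Motor against somatosensory cortex. No member was called by limma in either direction (background: 0% of genes higher, 0% lower), while 4 members and 1100 genes had an unadjusted p under 0.05. The median difference was 0.04 over the members and 0.03 over all genes, and none of the partner genes was called. Scn4b came nearest: MC ran through 41.1, 63.2 and 106 and SS through 24.1, 42.6 and 64.2, a difference of 0.62 (SE 0.12, limma, adjusted p = 0.0679), positive in 9 of 10 mice with overlap. It was the 1 member among 14 genes called by edgeR on recovered counts, at 0.61 with adjusted p = 0.00252. It was also called with a pseudocount of 10 (0.53, among 4 genes), with quantile normalization (0.76, among 11 genes), without mouse 1168 (0.69, among 5 genes) and without mouse 1170 (0.73, the 1 gene called). The other members differed by at most 0.23 in size.

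p16 high against p16 low AOIs. Only mice and subregions with both labels entered, so each difference is within a mouse. Over hippocampus and cortex 2 of 40 members were called, both higher in p16 high AOIs (background: 0.386% of all genes called, 77 genes, all higher). Cacna1e was at 149, 215 and 313 in p16 high AOIs and 125, 180 and 218 in p16 low ones, a difference of 0.26 (SE 0.05, limma, adjusted p = 0.0303). Scn8a was at 125, 197 and 267 against 100, 173 and 210, a difference of 0.21 (SE 0.05, limma, adjusted p = 0.0474). Both were higher in 10 of 10 mice, although the ranges overlap. Scn2a missed the threshold, at 122, 195 and 259 against 103, 166 and 198 (0.22, SE 0.06, limma, adjusted p = 0.058).

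These 2 calls are small and depend on the setting. With the values scaled to the 75th percentile, with quantile normalization, or without mouse 1151 or 1175, 0 members and 0 genes in all were called. Without the replicate block, which ignores the pairing by mouse, both were 0 as well. Without mouse 1162, 0 members among 4 genes were called, and without mouse 1170, 0 among 7 genes. Without mouse 1157 (10 genes called in all), without mouse 1169 (9 genes), or without the CA3 AOIs of mouse 1175 (18 genes), 1 member was called, Cacna1e. With edgeR on recovered counts 3 members among 151 genes were called, Cacna1e at 0.21, Scn2a at 0.18 and Scn8a at 0.18. The median difference was 0.08 over the members and 0.03 over all genes. Of the 40 members 28 were above 0, and the share of all genes above 0 was not counted. An unadjusted p under 0.05 was reached by 14 members and 2828 genes. Other measures moved with the label. The median gene stood higher over the negative probe in the p16 high AOIs of 9 of 10 mice (1.31 to 1.72 against 1.28 to 1.66), and the summed neuronal markers were higher in 7 of 10 (4548 to 10973 against 3944 to 8159). Total counts per AOI were higher in the p16 high AOIs of 2 of 10 mice (medians of 647234 and 654875). None of the 15 neuronal markers was called, and the part of these measures in the 2 calls was not tested. Of the partner genes 1 of 20 for calcium channels and 1 of 13 for AMPA receptors were called, both higher: Calm2, a calmodulin gene, at 1851 against 1545 and Gria2 at 395 against 329.

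**Figure D4:**
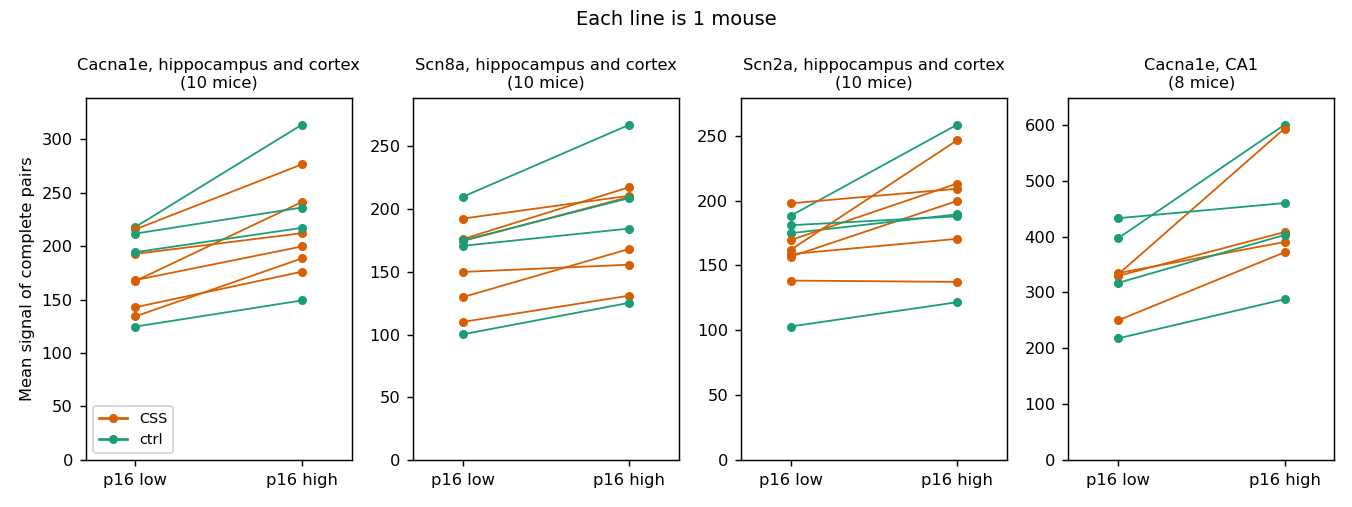
Mean signal of the complete p16 high and low pairs of each mouse (1 line per mouse, CSS in orange, control in green) for Cacna1e, Scn8a and Scn2a over hippocampus and cortex (10 mice) and Cacna1e in CA1 (8 mice). Every line rises for Cacna1e and Scn8a, and the levels of different mice overlap between the labels.

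Within CA1 (8 mice), Cacna1e was the 1 member called (background: 0.0902% of genes). Its p16 high AOIs were at 288, 406 and 601 and the p16 low ones at 218, 331 and 433, a difference of 0.42 (SE 0.08, limma, adjusted p = 0.00598), higher in 8 of 8 mice with overlap. No member was called with quantile normalization (9 genes called in all), without mouse 1162 (1 gene) or without the replicate block (0 genes). With edgeR Cacna1e was called at 0.37, among 103 genes. Scn3b at 0.24 (SE 0.07) and Scn2b at 0.27 (SE 0.09), adhesion and gating subunits, had adjusted p of 0.125 and 0.171 in limma. An unadjusted p under 0.05 was reached by 13 members in all. The number over all genes is not given here, so the 13 have no background to be read against. Of the 13 AMPA receptor and TARP partners 1 was called in CA1, and none of the 13 sodium or 20 calcium channel partners was; it was Gria2, the subunit that makes AMPA receptors impermeable to calcium, at 793 against 644.

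Within CA3 (8 mice) limma called 0 members (background: 0% of genes), with 11 members and 2654 genes at an unadjusted p under 0.05. Cacna2d3 had the largest difference of the measurable members, at 80.7, 177 and 249 in p16 high and 59.4, 106 and 141 in p16 low AOIs (0.60, SE 0.14, limma, adjusted p = 0.184), higher in 7 of 8 mice. It was the 1 member among 55 genes called by edgeR, at 0.54. Leaving out mouse 1152 gave calls for 538 genes, of which 4 were members: Cacna2d3 at 0.76, Cacna1h at 0.56, Scn8a at 0.51 and Cacnb1 at 0.49. No partner was called in CA3.

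In MC and SS (9 mice each) and CP (7 mice) limma called 0 members (background: 0% in each), with 3, 2 and 2 members and 996, 898 and 1046 genes at an unadjusted p under 0.05, and edgeR called 0 members in each. Cacna1e differed by 0.20 (SE 0.09) in MC. In CP, Cacna1c was at 22.1, 28.5 and 40.5 in p16 high and 17.3, 21.1 and 29.4 in p16 low AOIs, higher in 7 of 7 mice (0.47, SE 0.15, limma, adjusted p = 0.889).

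Chronic social stress against control. No member was called by limma in hippocampus and cortex as 1 mean, in any of the 5 subregions, or by edgeR in any of these 6 comparisons (background: 0% of genes in each by limma, and 0 to 9 genes by edgeR). Unadjusted p under 0.05 was reached by 0 members of hippocampus and cortex and 370 genes, 0 members in CA1 and 532 genes, 1 member in CA3 and 650 genes, 2 in MC and 529 genes, 0 in SS and 706 genes, and 1 in CP and 587 genes. In hippocampus and cortex the median difference was -0.02 over the members and -0.01 over all genes, and the measurable members lay between -0.24 and 0.08. None of the sodium channel, calcium channel or AMPA receptor partners was called in these comparisons either.

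Members with large differences between subregions overlapped between the stress groups. Scn3b was at 128, 137 and 171 in the lowest, median and highest of 6 CSS mice and at 98.4, 145 and 186 in 4 control mice; Cacng8 at 293, 379 and 417 against 229, 369 and 467; Cacna1e at 166, 193 and 246 against 137, 208 and 266. In each of these the control mice spanned the CSS mice. Cacng3, whose estimate was the lowest of the measurable members, was at 47.8, 49.6 and 56.3 in CSS and 44.5, 64.5 and 75.3 in control mice (-0.24, SE 0.13).

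**Figure D5:**
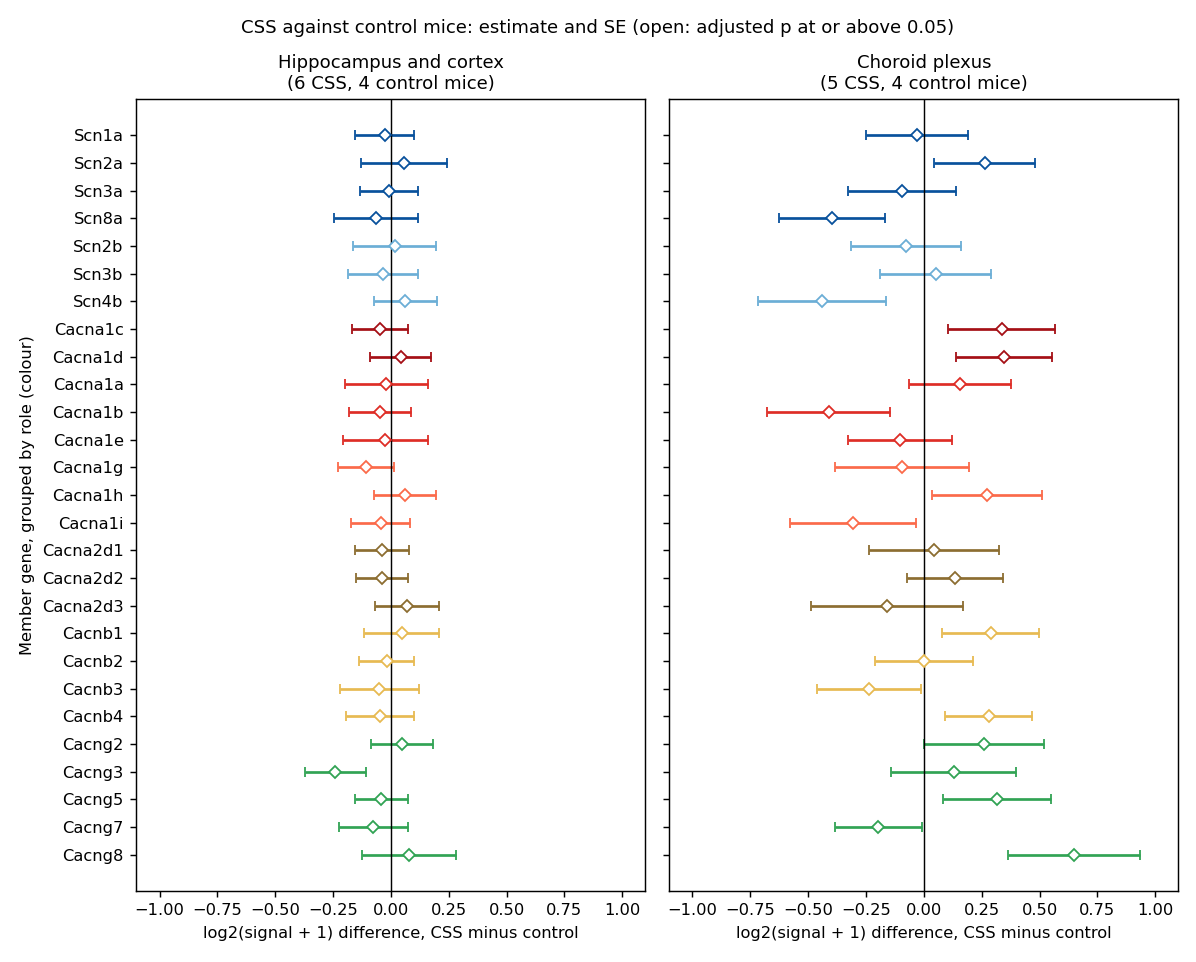
Difference in log2(signal + 1), CSS minus control, with its standard error for 27 of the 28 measurable members in hippocampus and cortex (6 CSS and 4 control mice) and in CP (5 and 4). All symbols are open because no adjusted p is under 0.05; the estimates run from -0.24 to 0.08 on the left and from -0.44 to 0.65 on the right.

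Over the subregions 4 members had an unadjusted p under 0.05. Cacna1g in CA3 was at 12.3, 21.5 and 30.5 in CSS and 24.1, 31 and 31.5 in control mice (-0.47, SE 0.21), and Cacng8 in CP at 15.8, 21 and 29.4 in 5 CSS and 5.52, 15.5 and 19.1 in 4 control mice (0.65, SE 0.29), at background in both. Scn9a in MC, near the negative probe, ran through 25.08, 26.9 and 42.9 in CSS and 19.9, 22.6 and 24.999 in control mice, an edge of almost no width (0.33, SE 0.15). Cacna2d4 in MC, also near the negative probe, was at 18.1, 18.9 and 22.6 against 12.9, 14.4 and 19.8 (0.39, SE 0.16). Each of the 4 had an adjusted p of 1 in limma. Whether the p16 difference, or the difference of CP from the rest, depended on stress was tested directly as an interaction, and 0 members were called (background: 0% in each), 0 members having an unadjusted p under 0.05 against 661 and 718 genes; edgeR also called 0.

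Position and promoter sequence were compared across members as features that the rule did not use. Several members are neighbours: Scn3a and Scn2a on chromosome 2 (2:65457118-65767447, a gap of 53.172 kb), then Scn1a, Scn9a and Scn7a (2:66270781-66784910), Scn10a and Scn11a on chromosome 9 (9:119608456-119825456), Cacng1, Cacng4 and Cacng5 on chromosome 11 (11:107703218-107915055), and Cacng7, Cacng8 and Cacng6 on chromosome 7. Neighbours could differ in level. Scn2a was not called between CA3 and CA1 and Scn3a was lower in CA3; Scn1a was measurable and Scn9a and Scn7a were not. Scn10a and Scn11a stayed near the negative probe in every subregion.

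RefSeq promoter windows were at hand for 30 of 40 members, 41 windows in all, each with 250 bases before a start. The median window of the members held 8 CG dinucleotides and 56.8% G and C, against 6 and 52.4% over 32851 windows of all genes. The GC box GGGCGG, searched on both strands, was in the windows of 15 of the 30 members (15 of 41 windows) against 32.7% of all windows. RE1, the element bound by REST, a repressor of neuronal genes, was searched by its left and right parts: TCAGCACC was found in 0 member windows against 1.32% of all, and GGACAGCG in a window of 1 member, Cacnb1, against 0.992% of all. Matches of different motifs were counted separately and may overlap at their ends. These are matches of letters in these windows only.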

How the data were processed

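RNA of formalin-fixed, paraffin-embedded brain sections (5 µm) was profiled with the GeoMx mouse Whole Transcriptome Atlas, per the labels' protocols; mm10 is the build in the submitters' processing notes, and the tools that made counts from reads were unstated there. The table holds signal values that the authors had already scaled before they were deposited, as the values show: every AOI has a median of 22.1, and division by the value of 1 count gave whole counts for at least 99.98% of values within 0.01. Those recovered counts served only the depth figures and the edgeR alternative. Counts per AOI ran from 184469 to 2098984 and the median gene's count from 6 to 82, so low members are uncertain.

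AOIs were averaged per mouse and side on log2(signal + 1) and tested with limma 3.58.1 in R 4.3.3 (lmFit, eBayes with trend), 2-sided, with Benjamini-Hochberg adjustment over 19962 genes. Within-mouse comparisons had the mouse as a block; p16 comparisons used complete high and low pairs; stress comparisons had 1 value per mouse. The pairing comes from the mouse number in the labels: deviations of the same mouse correlated with a median of 0.14 between p16 labels, 0.03 between CA3 and CA1 and 0.09 between CA1 and cortex. Some mice lacked the p16 high or the p16 low AOI of a subregion, so subregion and stress comparisons mix the labels unequally in them. P-values of within-mouse comparisons rest on the spread of the differences over mice. Those of stress comparisons rest on the spread of mouse values within groups, and those of interactions on that of mouse differences within groups.

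Alternatives were a pseudocount of 10, genes above the median signal only, quantile normalization, scaling to the 75th percentile, edgeR 4.0.16, no replicate block, leaving out each mouse, and leaving out the CA3 AOIs of mouse 1175. Any member could be named; full statistics were for up to 10 called members at each end with the same sign in every mouse, a standing list of brain subunits, and, with under 5 calls, the 5 members at either end of the moderated t. Of a partner list up to 4 genes with the smallest p were named; Cntn1 and Rem1 were named after their values were seen. The members, the lists of partners and markers and the alternatives were chosen with earlier results of these data known. Scripts were tested on simulated data. Promoter windows are RefSeq's (GRCm38.p6). Some members and promoter sequences are not reported here.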

Additional observations from a re-analysis of the deposited data

Results flagged for a closer look

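Of 99 differences of called members that were measurable, 7 had 1 mouse far from the others. The limit used is passed by about 1 in 20 independent normal samples. The 99 share mice and AOIs, so that rate is not the one to expect for them. For CP against hippocampus and cortex, Cacnb4 was -2.20 in mouse 1151, with a median of -1.23 over 9 mice. Mouse 1182 stood apart for 3 members in CA3 against CA1: Cacna1c was 0.00080 there with a median of 1.04 over 10 mice, Cacna1e was -1.41 with a median of -0.66, and Scn3a was -1.29 with a median of -0.51. In the same comparison Scn4b was 0.25 in mouse 1157, the 1 mouse above 0, with a median of -0.61. For CA1 against cortex, Cacna2d1 was -1.097 in mouse 1163 and 0.55 in the median mouse. For CA3 against cortex, Scn2b was 1.50 in mouse 1169 and 0.80 in the median mouse. Mouse 1182 had no p16 high AOI in CA3, mouse 1163 no p16 high AOI in SS, and mouse 1169 no p16 low AOI in MC. No cause of these differences was tested.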

How the results depend on the processing

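Over 1722 repeats of a named member's test under another setting, 1606 kept direction and call, 105 lost the call and 11 changed sign. The sign changes were all against cortex. In CA1 with quantile normalization Cacna1c was at -0.17, Cacna1d at -0.15, Cacna1a at -0.032, Cacna1g at -0.083, Cacnb3 at -0.47, Scn1a at -0.27 and Scn2a at -0.082, and with 75th percentile scaling Cacna1c was at -0.16 and Scn1a at -0.10. In CA3 with quantile normalization Cacna1d was at -0.17 and Cacng2 at -0.16. Of these, Cacnb3 and Scn1a with quantile normalization were called lower in CA1 (limma, adjusted p = 1.70e-08 and 0.0045), opposite to their calls as deposited. The other sign changes were not called. Called higher and lower members numbered 20 and 12 in CA1 and 17 and 12 in CA3 with edgeR, whose median of all genes was at -0.18 and -0.12. The shares of all genes called higher and lower with edgeR were not counted. For CA3 against CA1 the 75th percentile scaling moved the median of all genes to 0.15. The counts of called members moved as follows, and the numbers of all genes called in the settings that moved them are in the sections above. MC against SS gave 1 with a pseudocount of 10, quantile normalization or edgeR, and 0 to 1 without one mouse. The p16 count in hippocampus and cortex was 0 with quantile normalization or 75th percentile scaling, 1 without the CA3 AOIs of mouse 1175, and 0 to 3 without one mouse; in CA1 it was 0 with quantile normalization and 0 to 1 without one mouse; in CA3 it was 1 with edgeR and 0 to 4 without one mouse. Without the replicate block, which drops the pairing by mouse, both p16 counts (hippocampus and cortex, CA1) were 0 and the other counts stayed within 1.5 times. The cause of these changes was not tested. The 27 calls for CP were kept in each setting, and 17 of 20 for CA3 against CA1, and the share kept among calls of all genes was not counted. With 4 control mice and members near the negative probe in CP, small differences were not detectable.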
